A study of Mus musculus with 6 samples.

Results

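Pmvk, Lss and Cyp51 encode enzymes of cholesterol synthesis, and they were 3 of the 14859 named genes measured in star pyramid neurons of the mouse visual cortex. They were picked with their array values in the deprived and non-deprived groups already known. Those values are therefore given as a description and without a test. Each gene had 1 transcript cluster under its own symbol in the platform annotation: 6899252 for Pmvk, 6768928 for Lss and 6935927 for Cyp51.

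Star pyramid neurons are excitatory cells of cortical layer 4, the main target of visual input from the thalamus. The mice were monocularly deprived with tetrodotoxin (TTX), a sodium channel blocker that silences the eye into which it is injected, given once at postnatal day 12 to 13 and again at day 13 to 14. Labelled (m-Citrin) neurons were picked by hand from dissociated tissue at day 14, 3 samples from the deprived and 3 from the non-deprived hemisphere, with 1 array per sample. Both groups came from animals with a silenced eye, so the non-deprived hemisphere is not an untreated control. The labels name neither the promoter that drives m-Citrin nor the number of animals behind a sample, and are silent on whether samples that share a group are from different animals, so the spread between them may be technical. The letter after the sample number was l in the non-deprived and r in the deprived group throughout. If it marks the side of the brain, side and deprivation cannot be told apart.

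Cholesterol is built from acetyl-CoA in a long chain of steps. The early, mevalonate part of the chain makes isoprenoid units that also serve to lipidate proteins, and the late part closes the steroid rings and trims them. Because cholesterol does not cross the blood-brain barrier, the brain makes its own; neurons do so during development, and glia, above all oligodendrocytes during myelination and astrocytes, become the main producers. The genes of the chain are controlled together by SREBP2, a membrane-bound transcription factor that is released when cellular sterol is low.

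Array values are log2 expression values as the authors deposited them. A difference of 1 is a doubling, and values of different genes cannot be ranked against each other because each has its own probes. Arrays 2 and 3 of the non-deprived group differed from the other 4 in the upper part of their values, with 75th percentiles over all named genes of 6.43 and 6.55 against 7.01 to 7.15. Results are therefore given with and without them. With both left out, non-deprived array 1 alone stands against the 3 deprived arrays, so those values rest on the level of that 1 array. In the comparison of deprived with non-deprived arrays, limma called 0 of 14859 genes at an adjusted p under 0.05 (0% of genes tested), with 775 genes (5.22%) at an unadjusted p under 0.05. The median difference of all genes, deprived minus non-deprived, was 0.05, and 56.3% of genes had the higher mean in the deprived group. Without non-deprived arrays 2 and 3 these were 0.011 and 51.2%. The number of arrays limits the precision. In such samples of many cells, fewer cells that express a gene and less RNA per cell cannot be told apart.

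Pmvk, phosphomevalonate kinase, adds the phosphate that turns mevalonate phosphate into mevalonate diphosphate in the early part of the chain. Its log2 values were 7.13, 5.01 and 6.06 in non-deprived arrays 1 to 3 and 7.30, 7.59 and 7.60 in deprived arrays 1 to 3. The deprived values lay close together and all above the non-deprived ones, whereas the non-deprived values were spread over more than 2 log2 units, with array 1 almost at the deprived level and array 2 far below it. The group means were 7.50 ± 0.17 and 6.07 ± 1.06 (mean ± SD, n = 3 arrays each), a log2 difference of 1.43 ± 0.55 (SE). Over all named genes, 6.3% had every deprived value above every non-deprived one; since the same values chose Pmvk, its separation is not a result. Without non-deprived arrays 2 and 3 together, which leaves array 1 alone, the difference was 0.36, and without array 2 alone it was 0.90. Omitting non-deprived array 1 instead gave 1.96.

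Lss, lanosterol synthase, folds the linear squalene epoxide into lanosterol, the chain's first sterol. Its non-deprived arrays read 5.06, 4.63 and 5.10, and its deprived arrays read 5.0, 7.13 and 5.83. Deprived array 1 lay among the non-deprived values, so the groups overlapped, and deprived array 2 stood well above all others. The deprived mean was 5.99 ± 1.07 and the non-deprived mean 4.93 ± 0.26, a log2 difference of 1.06 ± 0.52 (SE). Leaving out deprived array 2 lowered the difference to 0.49. Without non-deprived arrays 2 and 3 it was 0.93, close to its value over all arrays.

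Cyp51, lanosterol 14-alpha-demethylase, is the cytochrome P450 that takes the next step by removing a methyl group from lanosterol. Its non-deprived values were 6.69, 5.83 and 7.07, and its deprived values 7.74, 6.88 and 8.14. The groups overlapped at deprived array 2, which was below non-deprived array 3. The means were 7.59 ± 0.64 and 6.53 ± 0.64, again a log2 difference of 1.06 ± 0.50 (SE), and the SDs of the groups were alike. No single array moved this difference by more than 1.5 times (0.708 to 1.41), and it was 0.90 without non-deprived arrays 2 and 3.

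**Figure D1:**
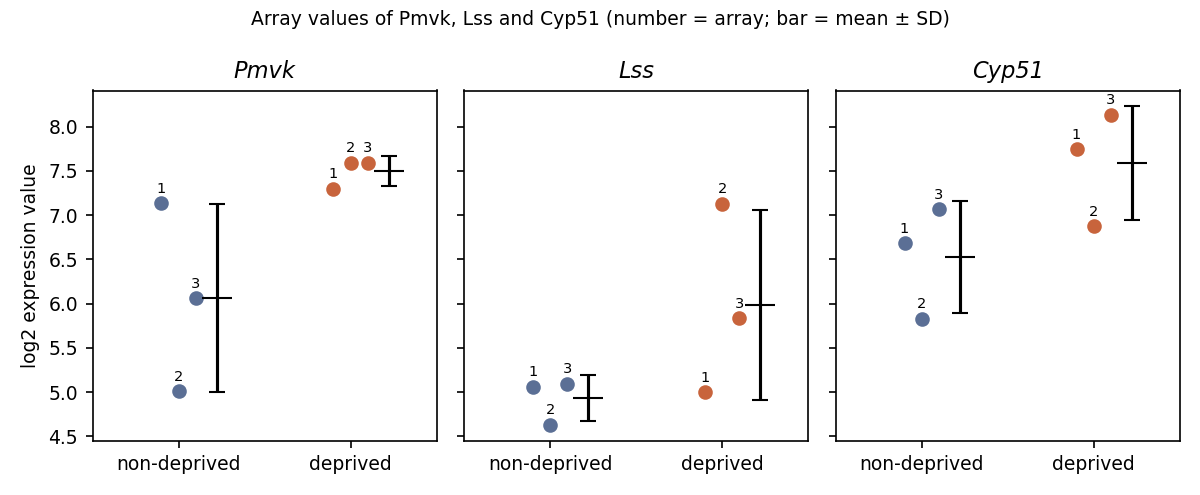
Log2 expression values of Pmvk, Lss and Cyp51 on each array, non-deprived on the left and deprived on the right of each panel; numbers are array numbers and bars are the mean ± SD of 3 arrays. Pmvk was lower in non-deprived arrays 2 and 3 than in the other 4 arrays, Lss had its highest value, 7.13, in deprived array 2, and Cyp51 was spread alike in both groups.

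The 3 genes shared a low point and differed in their high points. Non-deprived array 2 held the lowest value of each of them, as it did for 23.2% of all named genes. The highest value lay in deprived array 3 for Pmvk and Cyp51, where Pmvk was nearly equal in array 2, and in deprived array 2 for Lss, where Cyp51 had its lowest deprived value. Across the 6 arrays Pearson's r was 0.74 between Pmvk and Cyp51, 0.64 between Pmvk and Lss and 0.26 between Lss and Cyp51. These are descriptions over few arrays, and the arrays' differences in signal and their grouping act on all 3 genes alike.

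Scaling the arrays to each other made all 3 differences smaller and turned none. After median centring they were 1.27 for Pmvk and 0.90 for both Lss and Cyp51, while the median of all genes moved from 0.05 to -0.109. Relative to that median the differences were the same by construction. After quantile normalization they were 1.15 for Pmvk, 0.88 for Lss and 0.73 for Cyp51. On that scale the non-deprived values of Pmvk were 6.95, 5.13 and 6.35 and the deprived values 7.18, 7.31 and 7.40, so its groups still did not overlap.

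**Figure D2:**
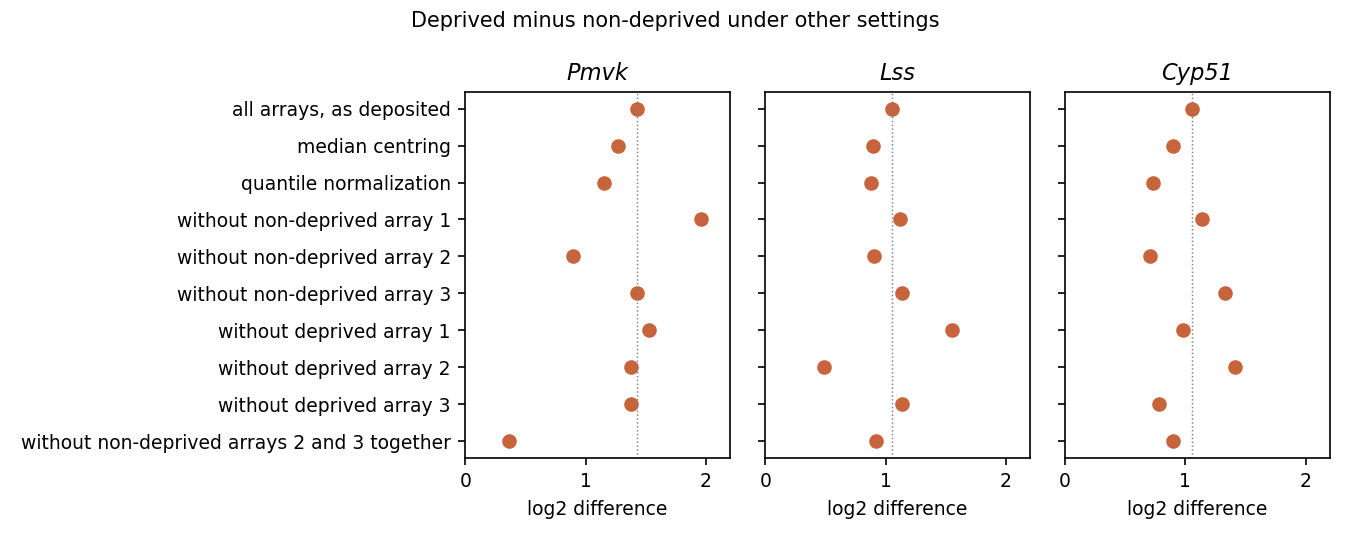
Log2 difference, deprived minus non-deprived, of Pmvk, Lss and Cyp51 with all arrays (dotted line), after 2 ways of scaling the arrays, and without single arrays or non-deprived arrays 2 and 3 together. All points lie above 0; the lowest is 0.36, for Pmvk without non-deprived arrays 2 and 3.

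The 250 bases before the annotated starts are shown for the 3 genes because sterol control acts there on many genes of the chain. The sequences are RefSeq's, of build GRCm38.p6, written 5′ to 3′ on the strand of the gene. For Pmvk, RefSeq lists 2 starts 5030 bases apart, and the upstream one is shown; the array values do not tell which start was used. Capitals mark matches on either strand to TCACCNCA, the core of a sterol regulatory element (SRE) that SREBP binds, to CCAAT, the site of NF-Y, to GGGCGG, the GC box of Sp1-type factors, and to TGACG, a CRE core of CREB-type factors. No match overlapped another. These windows lie at chr3:89454291-89454540 (plus strand) for Pmvk, chr10:76531355-76531604 (plus strand) for Lss and chr5:4104698-4104947 (minus strand) for Cyp51.
Pmvk: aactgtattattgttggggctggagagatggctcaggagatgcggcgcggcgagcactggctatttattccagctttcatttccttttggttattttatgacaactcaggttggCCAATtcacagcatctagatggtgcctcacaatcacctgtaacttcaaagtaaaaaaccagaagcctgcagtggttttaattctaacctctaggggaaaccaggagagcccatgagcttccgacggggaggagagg
Lss: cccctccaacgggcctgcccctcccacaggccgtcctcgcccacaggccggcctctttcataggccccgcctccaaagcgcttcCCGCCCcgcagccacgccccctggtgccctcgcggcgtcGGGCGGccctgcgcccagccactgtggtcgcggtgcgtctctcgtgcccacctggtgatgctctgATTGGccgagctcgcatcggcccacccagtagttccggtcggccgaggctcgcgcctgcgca
Cyp51: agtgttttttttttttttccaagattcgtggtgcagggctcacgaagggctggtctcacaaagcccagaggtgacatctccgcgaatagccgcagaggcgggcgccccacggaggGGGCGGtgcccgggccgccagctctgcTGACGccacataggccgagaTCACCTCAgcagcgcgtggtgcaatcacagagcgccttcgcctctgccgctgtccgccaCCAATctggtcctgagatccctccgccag

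The Cyp51 window held all 4 motifs: the GC box 135 bases before the start, the CRE core at 108, the SRE core at 88 and CCAAT at 29, counted from the first base of each match. That order of CRE and SRE close together is a known feature of CYP51 promoters in mammals. In Lss the letters of CCAAT lay on the opposite strand 62 bases before the start, with GC boxes at 127 and, on the opposite strand, at 166. The upstream window of Pmvk held CCAAT at 136 and none of the other motifs, and the window of its second start held none of the 4. SRE letters were looked for as this core alone, chosen with the Cyp51 sequence in view, and a window without them says nothing of SREBP.

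Among the 21 genes of the cholesterol synthesis list, 16 had a promoter window in the RefSeq table. CCAAT was present in 15 of these 16 genes, against 39.5% of 17492 protein-coding genes. The GC box was present in 15, against 45.8%, and the CRE core in 5, against 22.6%. The SRE core was present in 3 (Cyp51, Hmgcs1 and Hsd17b7), against 3.96%. Since its letters were chosen with the Cyp51 sequence in view, the match in Cyp51 was fixed by that choice. Genes with several starts have more sequence in which to match, and no test was made.

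Genes of the chain differed in both directions between the groups. Of the 21 enzyme genes listed, 16 had a cluster with a symbol of their own. Limma called 0 of the 16, as it called 0% of all genes, and among the 13 that are not Pmvk, Lss or Cyp51, 0 had an unadjusted p under 0.05, beside 5.22% of all genes. Of the 16, the deprived mean was higher for 11 and lower for 5, with a median log2 difference of 0.55 beside 0.05 for all genes. Without non-deprived arrays 2 and 3 they split 8 to 8, with a median of 0.03, beside 51.2% higher and a median of 0.011 for all genes. Omitting non-deprived array 1 instead gave a median of 0.97. With all arrays, the 13 genes without the 3 members split 8 higher to 5 lower, with a median of 0.12, and in 0 of them were the groups separate (6.3% of all genes separated upward and 4.03% downward). The median of these 13 was -0.036 after median centring and -0.19 (5 higher, 8 lower) once non-deprived arrays 2 and 3 were left out.

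**Figure D3:**
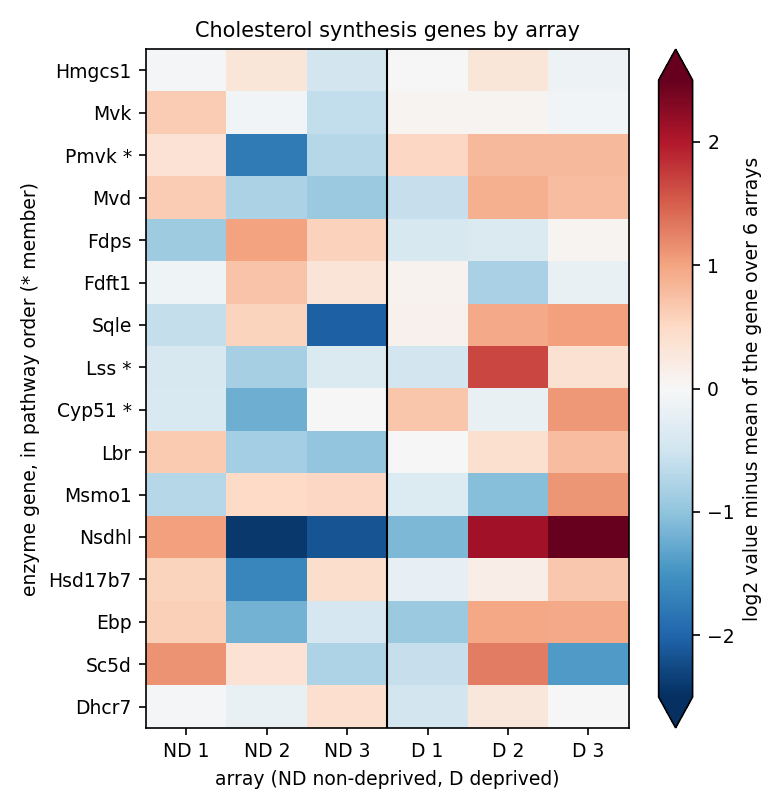
Log2 values of the 16 measured cholesterol synthesis genes (rows, in the order of the chain, members starred) on the 6 arrays (columns), each minus the gene's mean over the arrays; red is above and blue below that mean. Non-deprived array 2 or 3 held the lowest value of 11 of the 16 genes, and deprived array 2 or 3 the highest of 12; of the 13 without the members it was 8 and 9, and of all named genes 46.8% and 36.1%.

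In the mevalonate part, Hmgcs1, which makes HMG-CoA, gave non-deprived values of 9.99, 10.32 and 9.55 and deprived values of 10.02, 10.33 and 9.88. The deprived values lay within or close to the non-deprived range, and the difference of 0.12 had a 95% interval from -0.53 to 0.78. Mvk, the kinase just before Pmvk, differed by 0.04 (-0.83 to 0.91), with non-deprived values from 5.58 to 6.83 that enclosed the deprived ones, 6.13 to 6.28. Mvd, the decarboxylase just after Pmvk, had non-deprived values of 7.15, 5.73 and 5.58 and deprived values of 5.94, 7.41 and 7.29. The groups overlapped and the difference, 0.72 ± 0.59 (SE), became -0.27 without non-deprived arrays 2 and 3. The enzymes on either side of Pmvk thus overlapped between the groups. Whether Pmvk differed from them in its response was not tested.

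Fdps, which joins isoprenoid units into farnesyl diphosphate, had a difference of -0.46 ± 0.47 (SE) at values from 2.70 to 4.59, near the bottom of the scale, where no floor is known. It was -1.02 without non-deprived array 1, -0.07 without array 2 and 0.66 without arrays 2 and 3 of that group. Fdft1, squalene synthase, commits farnesyl diphosphate to sterols. Its non-deprived values were 8.81, 9.63 and 9.24 and its deprived values 9.002, 8.10 and 8.73. They overlapped, at a difference of -0.61 ± 0.38 (SE, limma adjusted p = 0.856), which became -0.36 when deprived array 2 was omitted and -0.19 without non-deprived arrays 2 and 3. Sqle, squalene epoxidase, supplies the substrate of Lss. Its values were 7.04, 8.19 and 5.61 against 7.75, 8.58 and 8.67, which overlapped at a difference of 1.39 ± 0.69 (SE, limma adjusted p = 0.856), close to the 1.43 of Pmvk. Omitting non-deprived array 3 gave 0.72, and omitting arrays 2 and 3 of that group gave 1.30.

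Among the genes after Cyp51, Nsdhl, a sterol dehydrogenase of the demethylation complex, had the widest values. Non-deprived values were 8.54, 5.10 and 5.35, and deprived values 6.39, 9.62 and 10.07. Deprived array 1 was below non-deprived array 1, and the difference of 2.37 ± 1.28 (SE) had an interval from -0.70 to 5.44; without non-deprived arrays 2 and 3 it was 0.16. Lbr, a sterol reductase that also anchors chromatin at the nuclear envelope, differed by 0.78 and Ebp, a sterol isomerase, by 0.67. Both signs turned without non-deprived arrays 2 and 3, to -0.27 and -0.26. Msmo1, the sterol methyl oxidase, Sc5d, the sterol desaturase, and Dhcr7, which makes cholesterol by reducing its immediate precursor, had differences of -0.21, -0.48 and -0.14, and Hsd17b7 one of 0.43. Each of these 4 signs turned when some single array was left out.

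**Figure D4:**
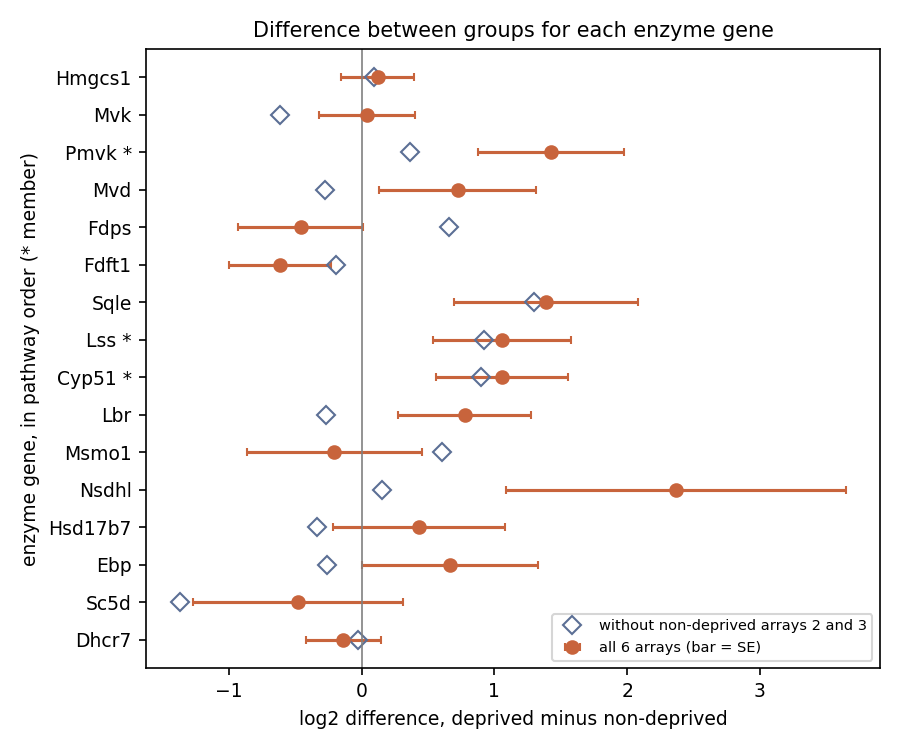
Log2 difference, deprived minus non-deprived, of the 16 measured cholesterol synthesis genes in the order of the chain (filled points, bars are the SE over all 6 arrays) and without non-deprived arrays 2 and 3 (open diamonds). Leaving out these arrays took Nsdhl from 2.37 to 0.16 and Pmvk from 1.43 to 0.36, and turned the signs of Mvk, Mvd, Fdps, Lbr, Msmo1, Hsd17b7 and Ebp.

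Genes that control the chain were measured at 8 of 10 listed, and limma called 0, with 5 higher, 3 lower and a median of 0.21 (3 higher, 5 lower and a median of -0.05 without non-deprived arrays 2 and 3). Mbtps1, the site-1 protease that releases SREBPs, differed by 0.67 ± 0.37 (SE) and by 0.34 without deprived array 2. Srebf1, the SREBP more tied to fatty acids, differed by 0.24, and by -0.12 after quantile normalization. In both, 2 of the 8 genes, every deprived value was above the non-deprived ones, beside 6.3% of all genes. Insig2, which holds SREBPs in the endoplasmic reticulum, differed by 0.82, and by -1.21 without non-deprived arrays 2 and 3. Of the genes that supply electrons to P450 enzymes such as Cyp51 or bind them, 5 of 6 were measured, 3 higher and 2 lower with and without non-deprived arrays 2 and 3, and 0 called (median 0.12, and 0.36 without). Pgrmc1, a heme protein that binds P450s, had non-deprived values of 7.75, 7.50 and 8.11 and deprived values of 8.99, 8.33 and 9.45. Its groups did not overlap, and its difference of 1.14 ± 0.41 (SE) was 1.18 without non-deprived arrays 2 and 3 (limma adjusted p = 0.856). Cyb5a, cytochrome b5, differed by 0.98 and its reductase Cyb5r3 by -1.07 (adjusted p = 0.856 for each), and the latter was -0.65 when either deprived array 2 or non-deprived array 1 was omitted and -1.91 without non-deprived arrays 2 and 3. For Cyb5a, omitting non-deprived array 2 gave 0.49.

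Uptake and transport genes had higher means in 8 of 9 measured (13 listed, 0 called, median 0.64), and in 5 of 9 without non-deprived arrays 2 and 3 (median 0.009). Osbpl2, an oxysterol-binding lipid carrier, differed by 1.88, Lipa, the lysosomal lipase that frees cholesterol from its esters, by 1.29, and Lrp1, a receptor for lipoproteins, by 1.21. With those arrays left out the values were 0.56, -0.03 and 0.10. Removal and storage genes were measured at 12 of 14, with 7 higher, 5 lower, 0 called and a median of 0.14 (6 higher, 6 lower and 0.10 without those arrays). Cyp7b1, which hydroxylates oxysterols, had the smallest p of the sterol lists: its non-deprived values were 6.71, 5.74 and 5.96 and its deprived values 4.98, 4.64 and 4.94. All its deprived values lay below the non-deprived ones, with a difference of -1.28 ± 0.29 (SE, limma adjusted p = 0.856) that was -1.85 without non-deprived arrays 2 and 3. Abca3 and Abca2, lipid transporters, differed by 1.02 and 0.43, and by 0.41 and -0.22 without those arrays.

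Fatty acid synthesis genes, which SREBPs also drive, split 6 to 6 among 12 measured of 15, with 0 called and a median of 0.12; without non-deprived arrays 2 and 3 it was 5 higher and 7 lower, with a median of -0.16. Scd2, the main stearoyl-CoA desaturase of the brain, showed 7.44, 4.98 and 7.17 in non-deprived and 8.70, 8.11 and 8.32 in deprived arrays. Its groups did not overlap, and its difference of 1.85 ± 0.69 (SE, limma adjusted p = 0.856) was 1.07 with non-deprived array 2 omitted and 0.94 with array 3 omitted as well. The desaturases Fads2 and Fads1 differed by 1.80 and 0.49, and by 0.21 and -0.20 without those arrays. The isoprenoid branch uses products made downstream of Pmvk, to lipidate proteins and for other ends. In 4 of its 12 measured genes every deprived value was above the non-deprived ones (6.3% of all genes). Means were higher in 11 of the 12 (15 listed, 0 called, median 0.61). Without non-deprived arrays 2 and 3 it was 7 of 12 (median 0.13). Pggt1b, a subunit of the enzyme that attaches geranylgeranyl groups, showed 4.99, 4.91 and 4.91 in non-deprived and 6.98, 6.17 and 6.77 in deprived arrays. It differed by 1.70 ± 0.27 (SE, limma adjusted p = 0.689), and by 1.65 without non-deprived arrays 2 and 3. Rabggtb and Fnta, further prenyltransferase subunits, differed by 1.03 and 0.98, and by 0.47 and 0.56 without those arrays.

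The genes whose pattern over the 6 arrays was most like that of a member were ranked by Pearson's r. For Pmvk they were Cs, citrate synthase (r = 0.999), Gabra5, a GABA receptor subunit (0.997), and Fam13b (0.996). Their differences were 1.22, 1.53 and 1.16, and 0.23, 0.40 and 0.34 without non-deprived arrays 2 and 3, beside 0.36 for Pmvk. For Lss they were Ccdc177 (0.995), the lysosomal pump Atp13a2 (0.994) and B3gat3 (0.993), and for Cyp51 the olfactory receptor Olfr722 (0.998), the Golgi protein Sys1 (0.998) and Chpt1, a choline phosphotransferase (0.988). Olfr722 was at 1.43 to 2.23 and Ccdc177 at 5.25 to 5.47, so r was high for genes whose own range was under 1 log2 unit. With 14859 genes and 6 arrays, values of r this high are no finding. No enzyme of the chain was among these 9 genes.

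Markers of other cells were examined because glia make much of the brain's cholesterol. Slc17a7, the vesicular glutamate transporter of cortical excitatory cells, ranged from 8.92 to 9.44 in non-deprived and from 9.92 to 10.35 in deprived arrays, and Rorb, a layer 4 factor, from 6.83 to 8.57 and from 7.77 to 8.41. A summed linear level is weighted to the genes with the highest values, here Slc17a7 and Camk2a on each array. For the 9 measured excitatory markers the sum ranged from 1973 to 2141 among non-deprived and from 2957 to 3468 among deprived arrays. Of the 9 markers, 8 were higher in mean, and 9 without non-deprived arrays 2 and 3 (median difference 0.49, and 0.40 without). The sum moved with the group, as the means of Pmvk, Lss and Cyp51 did, and its part in their differences was not tested. The median level of the 9 markers did not separate the groups. It was 6.65, 8.23 and 6.44 in non-deprived arrays 1 to 3 and 7.97, 7.69 and 7.58 in deprived arrays 1 to 3. Inhibitory markers (9 measured, 6 higher, and 5 higher without non-deprived arrays 2 and 3) summed to 1945 to 3760 and 2047 to 4075. Their sum is weighted to Sst, which had the highest value of the 9 on each array. Gad1, a GABA synthesis enzyme, was at 5.68 to 7.78 and 7.04 to 7.48. Among the others, named after their values were seen, the interneuron peptide Sst was at 10.46 to 11.36 and 10.08 to 11.59. Pvalb was at 3.76 to 6.34 and 5.60 to 7.94, and Vip at 3.28 to 3.58 and 3.13 to 3.55. On every array Sst lay far above the 75th percentile of all named genes (6.43 to 7.15). Which cells its signal came from was not tested. For Pvalb and Vip, with no known floor, the values do not show whether the transcripts were present.

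Astrocyte markers (9 measured, 7 higher) summed to 360 to 399 in the non-deprived arrays and to 558, 370 and 427 in deprived arrays 1 to 3. Deprived array 1 held the highest value of 5 of the 9 (13.6% of all genes) and the lowest of 2 (16.9% of all genes), with the water channel Aqp4 at 6.24 there and at 5.34 to 5.62 elsewhere. Pmvk and Lss had their lowest deprived values there and Cyp51 its middle one. Without that array the differences were 1.53 for Pmvk, 1.55 for Lss and 0.98 for Cyp51. These values rest on 1 array, and the part of astrocyte transcripts in the differences was not tested. Oligodendrocyte markers (11 measured, 5 higher) summed to 468 to 572 and 507 to 586, and Mbp, a myelin protein, was at 5.23 to 5.85 and 5.13 to 6.26. Microglial markers (10 measured, 3 higher) summed to 335 to 395 and 327 to 396, with Csf1r at 4.61 to 5.33 and 4.56 to 4.74. Endothelial and mural markers (10 measured, 7 higher) summed to 225 to 231 and 219.7 to 259, with Cldn5 at 2.85 to 4.03 and 3.02 to 4.03. Gfap, the astrocyte filament, was at 4.85 to 5.15 and 4.75 to 4.81. Without non-deprived arrays 2 and 3, means were higher for 5 of 9 astrocyte and 5 of 11 oligodendrocyte markers. They were higher for 6 of 10 microglial and 6 of 10 endothelial and mural markers. No marker was at 0, since array values have no true zero and no floor is known.

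**Figure D5:**
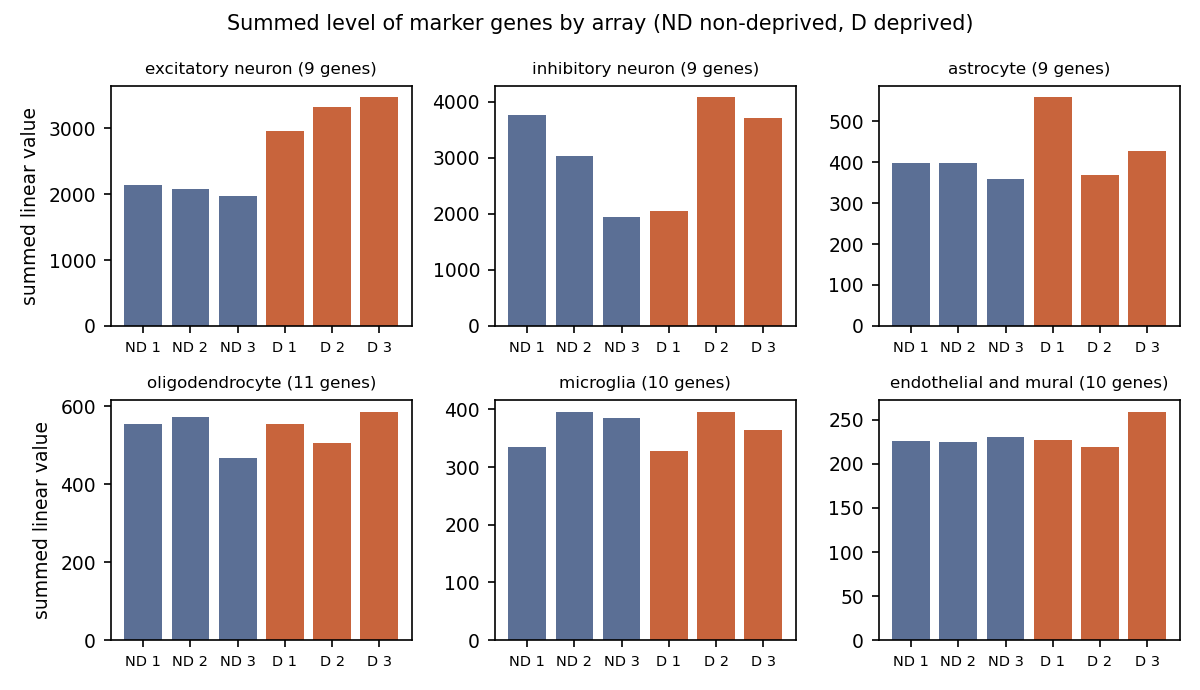
Summed linear level (2 to the power of the log2 value, added over genes) of the measured markers of 6 cell classes on each array, non-deprived in blue and deprived in orange. Each sum is weighted to the genes with the highest values. The excitatory sum separates the groups (at most 2141 against at least 2957); the astrocyte sum is highest in deprived array 1, at 558.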

How the data were processed

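Messenger RNA of 6 samples was measured on Affymetrix exon arrays. Per the labels' protocols, biotinylated cRNA was made by 2 rounds of T7 amplification from 0.3 to 1 ng of total RNA, which favours 3' ends and can add variation between samples. The authors deposited log2 values, 1 for each of 23331 transcript clusters on each array. The log2 scale was inferred from their range (0.584 to 13.6). How background was corrected and how arrays were normalized and summarized is not stated in the labels or the table. The submitters' processing notes name genome build mm9.

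The platform annotation gave 14995 clusters 1 symbol, 1019 several (not named) and 7317 none. Symbols were checked through Entrez identifiers against RefSeq names of GRCm38.p6, which changed 0. For 135 genes with several clusters the one with the highest mean was used. Groups were compared with limma 3.58.1 in R 4.3.3 (eBayes with a trend), Benjamini-Hochberg over 14859 genes at 0.05, two-sided, after a test on simulated data. The deposited values were not scaled further. Alternatives were the replicate number as a block, median centring, quantile normalization, filters on dim genes, the mean over clusters, no trend, and leaving out arrays. Genes named are the 3 members, the other measured enzymes, the 3 genes of each further list with the smallest p, the 3 genes most like each member, leaving out provisional symbols, and single cell type markers. The members and lists were chosen with earlier results of these data known. Promoter windows came from RefSeq tables.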

Additional observations from a re-analysis of the deposited data

How the results depend on the processing

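Limma called 0 genes, of the whole table and of the cholesterol synthesis list, under each alternative run that kept more than 1 array per group. Genes at an unadjusted p under 0.05 numbered from 459, of 7431 kept by the filter at the median mean, to 1850, of 14859 without non-deprived array 1. That omission also gave the smallest adjusted p of limma, 0.142. Pmvk and Cyp51 kept a positive difference under every alternative, and Lss under each but the filter at the median mean, which left it out. Leaving out each array in turn gave 0.899 to 1.96 for Pmvk, 0.486 to 1.55 for Lss and 0.708 to 1.41 for Cyp51, and Pmvk was at 0.36 without non-deprived arrays 2 and 3 together. The median of the cholesterol synthesis list was 0.277 to 0.97 over these single omissions and 0.03 without both arrays. For its 13 genes other than the members it was 0.015 to 0.368, -0.036 after median centring and -0.19 without both arrays. Same-numbered arrays did not deviate together (correlations of -0.0506, -0.0184 and -0.00334), so the numbers were not taken as pairs. The labels do not state whether a number marks 1 animal, and these correlations cannot settle it. As a description, the differences within numbers 1 to 3 were 1.059, 1.048 and 1.065 for Cyp51. They were 0.165, 2.582 and 1.535 for Pmvk and -0.062, 2.498 and 0.736 for Lss. With the replicate number as a block the differences stayed at 1.43, 1.06 and 1.06, as they must, and 745 genes had an unadjusted p under 0.05.

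Signs that turned after median centring were those of Ccdc177 (-0.072), Cldn5 (-0.0453), Hmgcs1 (-0.036), Mvk (-0.12) and the median of all genes (-0.11). After quantile normalization they were Aqp4 (-0.0099), Ccdc177 (-0.0455), Mvk (-0.23), Srebf1 (-0.12) and the median of all genes (-0.0557). Without non-deprived arrays 2 and 3, Abca2 (-0.22), Cldn5 (-0.37), Csf1r (0.0493), Ebp (-0.26), Fads1 (-0.20), Fdps (0.66), Gad1 (-0.48), Hsd17b7 (-0.34), Insig2 (-1.21), Lbr (-0.27), Lipa (-0.0323), Mbp (-0.15), Msmo1 (0.61), Mvd (-0.27) and Mvk (-0.61) turned. Over single omissions the ranges that crossed 0 were those of Aqp4 (-0.123 to 0.32), Cldn5 (-0.235 to 0.435), Csf1r (-0.34 to 0.0188), Dhcr7 (-0.308 to 0.0593), Hmgcs1 (-0.0772 to 0.307), Hsd17b7 (-0.277 to 0.817), Mbp (-0.107 to 0.456), Msmo1 (-0.805 to 0.278), Mvk (-0.26 to 0.368), Rorb (-0.0335 to 0.84) and Sc5d (-1.24 to 0.109). The cause was not tested. The counts of higher genes per list without non-deprived arrays 2 and 3 were added after the data were seen. Filters on dim genes, the mean over clusters and the fit without a trend turned none of the named genes they kept. Depth of signal over background is unknown.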
